A study of Mus musculus with 4 samples.

Results

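Endothelial cells, the cells that line blood vessels, were picked out of a single-cell RNA library of the aged mouse brain by their own RNA. A barcode counted as a cell with at least 500 unique molecular identifiers (UMIs, short tags that each mark 1 captured RNA molecule), at least 250 genes and at most 10% mitochondrial UMIs. It counted as endothelial if Cldn5, Flt1, Ly6c1, Slco1a4 and Egfl7 together had at least 5 UMIs and the microglial genes P2ry12, Tmem119 and Cx3cr1 together had at most 2. This left 110 endothelial cells of 13662 cells in the aged brain and of 35204 cells in the whole series. The series holds 4 libraries: the brain and the spleen were each sampled once from aged and once from young mice. Every library was sorted by flow cytometry for cells with much CD45, a protein on the surface of leukocytes, and made with version 2 of the 10x Chromium 3' kit. The labels describe a tamoxifen injection and a later search for tdTomato-positive natural killer cells in every library, without saying which of these mice received it. The sources used here give neither strain and genotype nor ages in numbers nor the number of mice per library. The labels also name the cell type of every library as neuroblast, and that name was not used here.

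Brain endothelial cells form the blood-brain barrier. They are sealed to each other by tight junctions, take up few vesicles, and carry transporters that let in glucose, amino acids and hormones and pump drugs out. Wnt signals from neighbouring cells keep this program on, and vessels of the choroid plexus and of a few other brain regions lack it, having instead pores closed by a diaphragm made of the protein Plvap. Along the vessel tree, arteries, capillaries and veins use different genes, and leukocytes leave the blood mainly in veins. Major histocompatibility complex (MHC) class I molecules show peptides to CD8 T cells and are made by nearly all cells, while class II molecules show peptides to CD4 T cells and are made mainly by specialised immune cells.

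The library of the aged brain held 57011537 UMIs and that of the young brain 26384220. The spleen libraries held 40628623 (aged) and 39866955 (young) UMIs. Cells that passed the filters had a median of 2099.5 UMIs in the aged brain and 1218 in the young brain. With 1 library per group no test between groups was possible, and all intervals are 95% intervals that cover counting error only. Many barcodes were shared between the young brain and the aged spleen, where 4874 and 4858 passing cells had a barcode that was also a cell in another library, against 93 in the aged brain and 43 in the young spleen. None of the 110 endothelial cells of the aged brain, and none of the 19 that the same rule found in the young brain, had such a barcode. All 12 barcodes that met the rule in the aged spleen did, so the spleen barcodes are not used below.

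The 110 cells held 215943 UMIs, with 512 to 6655 per cell, a median of 1672 UMIs and 991.5 genes, and a median of 4.12% mitochondrial UMIs. They were 0.805% of the cells of the aged brain (exact Clopper-Pearson interval 0.662 to 0.970%). The 5 genes of the rule had 5 to 94 UMIs per cell, with a median of 23.5. Near the limits of the rule, 9 cells had exactly 5 of these UMIs and 7 cells with 4 were left out. On the microglial side, 22, 43 and 45 cells had 0, 1 and 2 UMIs of the 3 microglial genes, and 32 barcodes with 3 were left out.

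The endothelial label was checked on marker genes outside the rule. Ptprb, a phosphatase of the vessel wall, had a UMI in 89 of the 110 cells (80.9%), against 2.5% of 10467 microglia of the same library. Kdr, the main receptor for vascular endothelial growth factor (VEGF), had a UMI in 65 endothelial cells (59.1%), against 2.98% of microglia. Pecam1, an adhesion molecule of endothelial junctions, was found in 61 (55.5%), against 5.28% of microglia. Cdh5, the cadherin of endothelial adherens junctions, was found in 45 cells (40.9%), against 0.592% of microglia, which were deeper, with a median of 2257 UMIs. Ptprc, which encodes CD45, had a UMI in 11 endothelial cells (10.0%), against 57.1% of microglia. Endothelial markers outside the rule were thus found in far more of these cells than of microglia, while the RNA of the protein used for the sort was detected in few of them.

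Markers of other cell types were low in the 110 cells but not absent. The 10 genes of the microglial list summed to 4538 UMIs per 1e6 UMIs (CPM), against 40929 CPM in microglia and 24712 CPM in ambient RNA, which was measured in barcodes of at most 100 UMIs. This list includes the 3 microglial genes of the rule, at 616 CPM in the 110 cells and 10068 CPM in microglia. Part of the difference was thus set by the choice of the cells. The choroid plexus list summed to 4066 CPM, nearly all of it Ttr, against 117784 CPM in 79 choroid plexus cells and 18026 CPM in ambient RNA. The mural list, for pericytes and smooth muscle, summed to 1625 CPM, above its ambient level of 452 CPM, against 15131 CPM in 21 mural cells. The mural gene Rgs5 was at 727 CPM and found in 30 of the 110 cells. The astrocyte list summed to 588 CPM in endothelial cells, against 231 CPM in microglia and 169 CPM in ambient RNA. Its sum was mainly Slc1a2 (99 UMIs), while Aqp4 and Gfap, which define astrocytes, had 0 UMIs. Slc1a2 was not the only raised member. Of 4 genes measured, 2 had intervals wholly above a 2-fold higher level than in other cells and 0 wholly below. The list median log2 ratio was 2.32, and 8.4% of all genes measured had such intervals above 2-fold. The neuroblast list summed to 347 CPM, against 44.5 CPM in microglia and 77.2 CPM in ambient RNA. All of it was Cd24a (51 UMIs) and Stmn1 (24 UMIs), and Dcx, Sox11, Dlx2 and Tubb3 had 0 UMIs. The part of such cells in these values was not tested. In all, 42 of the 110 cells had 3 or more UMIs of a list of another cell type, and values without them are given where they differ.

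A further 339 barcodes of the aged brain had at least 5 UMIs of the endothelial genes but more than 2 of the microglial genes. They were deeper, with a median of 5163 UMIs, and held a median of 25 microglial UMIs. Their endothelial genes made up 6026 CPM and their microglial genes 5235 CPM, against 14101 and 616 CPM in the 110 cells. Each gene of the rule thus had only 14.6 to 15.9% of its UMIs among passing cells of the aged brain in the 110 cells. These barcodes are among the 13552 other cells to which the endothelial cells are compared. They carry endothelial RNA into that group, so the main ratios are lower than those without them, of which a few are given below.

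**Figure D1:**
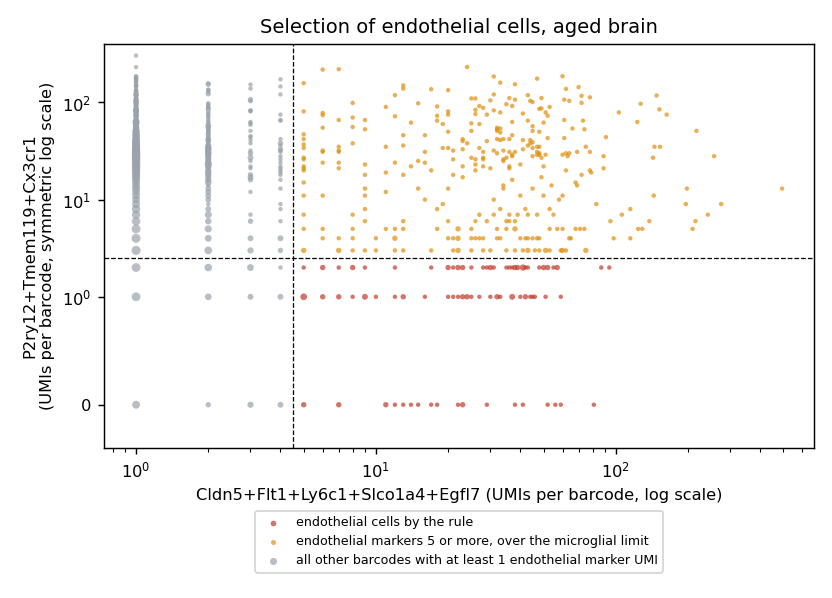
Summed UMIs of the 5 endothelial genes (log axis) against those of the 3 microglial genes (symmetric log axis) for barcodes of the aged brain with at least 1 endothelial UMI. The size of a point grows with the number of barcodes at that position. Dashed lines mark the limits of the rule, and the 110 endothelial cells lie at the lower right, below 339 barcodes with endothelial genes but more than 2 microglial UMIs.

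Endothelial cells were first set against the other cells of the aged brain, most of which are microglia. UMIs were summed over the cells, and a gene was measured if it had at least 50 UMIs over both groups. Because the cells were chosen by their RNA, and all genes come from these same cells, the ratios describe the cells and are no test. Of 10864 genes, 913 (8.4%) had an interval wholly above a 2-fold higher level in endothelial cells and 449 (4.13%) an interval wholly below a 2-fold lower level. Counted by the ratio alone the shares were 20.7% and 18.4%, with a median log2 ratio of 0.06 among the measured genes.

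The genes that stood highest, the first 20 when ranked by the lower bound of the ratio, code for matrix, secreted, surface and intracellular proteins. Hmcn1, a large protein of the extracellular matrix, had 445 CPM in endothelial cells, against 9.44 CPM in other cells (ratio 47.1, 37.0 to 59.4). Cxcl12, a chemokine that holds and guides leukocytes and progenitor cells, had 2538 CPM in endothelial cells and 92.9 CPM in other cells (ratio 27.3, 24.9 to 29.9). Emcn and Podxl, sialomucins of the luminal surface, were 32.8-fold and 27.8-fold higher. Car4 (carbonic anhydrase on the luminal surface) was 36.2-fold higher and Gpihbp1, which carries lipoprotein lipase to the lumen of capillaries, 50.7-fold. The receptors Flt4 and Robo4, both of vessel growth, were 47.8-fold and 31.6-fold higher, and Id1, a target of bone morphogenetic protein (BMP) signals, 24.3-fold. Plvap, Igfbp3, Esm1, Plcb1, Tm4sf1, Adgrl4, Btnl9, Cd300lg, Cyp26b1, Slc1a1 and Spock2 made up the rest, with ratios of 24.1 to 58.0. Several of the 20 genes were found in few of the 110 cells. Esm1 was found in 4, Gpihbp1 in 5, Cyp26b1 in 8, Btnl9 and Cd300lg in 9 each, and Plvap and Igfbp3 in 12 each. The 10 cells with Plvap described below held 70 of 72 Plvap UMIs and 31 of 35 Igfbp3 UMIs. The 5 genes that stood lowest were genes of leukocytes: S100a8 and S100a9 of neutrophils, at 0.0321 and 0.0445 of their level in other cells, Ngp of neutrophil granules at 0.0163, Cd74 at 0.0458 and Tmem173 (the DNA sensor adaptor STING) at 0.0285. Without the 339 barcodes over the microglial limit among the other cells, the ratios of the 20 higher genes were larger, from 73.3 (Id1) to 634 (Btnl9). That of Hmcn1 was then 490 and that of Cxcl12 152. Of the 20 higher genes, 7 are also listed for cluster 6 in the authors' deposited table of clusters, which lists all 5 genes of the rule among 220 genes and puts Flt1, Cldn5 and Ly6c1 first.

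The junction genes were high as a group. Of 16 junction genes 12 were measured outside the rule, and 9 of them had intervals wholly above 2-fold, with a list median log2 ratio of 2.61, against 0.06 over all genes. Cldn5, the main claudin of brain endothelium and a gene of the rule, was at 3765 CPM in endothelial cells and 139 CPM in other cells, and a UMI of it was found in 90 of the 110 cells. Esam, a junctional adhesion molecule of the immunoglobulin family, had 542 CPM in endothelial cells against 22.9 CPM in other cells (ratio 23.7, 19.3 to 28.8). Cdh5 had 398 against 16.5 CPM (24.2, 19.0 to 30.4), and Lsr, which builds the contact points of 3 cells, had 282 against 17.3 CPM (16.3, 12.3 to 21.3). Ocln, the tight junction protein occludin, was lower in level, at 111 against 8.67 CPM, with a similar ratio of 12.8 (8.08 to 19.5). Tjp1, the scaffold ZO-1, stood out less, at 593 against 144 CPM (4.13, 3.44 to 4.92). F11r, the junctional molecule JAM-A that platelets and leukocytes also carry, was the member lower in endothelial cells, at 148 against 304 CPM (0.488, 0.333 to 0.689). Cldn12, Cgn and Marveld3 had 0 UMIs in the 110 cells, where 3 counts, the value at which a 0 was set, are 13.9 CPM.

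Of 22 transporter genes 21 were measured, and 17 had intervals wholly above 2-fold and 1 wholly below, with a list median of 3.53. Bsg, an immunoglobulin-family partner of lactate transporters, was counted in the adhesion list and not in this one. It was the most abundant gene among those named here, with 6812 CPM in endothelial cells and 677 CPM in other cells (ratio 10.1, 9.54 to 10.6). Slc2a1, the glucose transporter GLUT1 of the barrier, had 1167 against 85.2 CPM (13.7, 12 to 15.6) and was found in 69 of 110 cells. The efflux pumps Abcb1a (P-glycoprotein) and Abcg2 had 1060 against 48.6 CPM (21.8, 18.9 to 25.1) and 861 against 69.1 CPM (12.5, 10.7 to 14.5). Slco1c1, a carrier of thyroid hormone, had 773 against 49.2 CPM (15.7, 13.3 to 18.4). Slc6a6, the taurine transporter, had 1320 against 221 CPM (5.98, 5.29 to 6.73). Mfsd2a, a lipid transporter that keeps vesicle traffic low in barrier capillaries, had 120 against 5.19 CPM (23.2, 14.7 to 35.2). Thus sugar, hormone, lipid and drug carriers of the barrier were all above 2-fold, whereas Slco2b1, which microglia use too, was at 181 against 534 CPM (0.338, 0.240 to 0.462). Without the 339 mixed barcodes among the other cells the list medians were 3.02 for junctions and 4.23 for transporters, and the ratio of Slc2a1 was 34.9.

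Among 16 genes of Wnt signalling and the barrier program, 14 were measured and 12 had intervals wholly above 2-fold, with a list median of 3.89. Lef1, a transcription factor through which Wnt signals act, had 338 CPM in endothelial cells against 19.3 CPM in other cells (17.5, 13.5 to 22.3). Foxq1, a forkhead factor of brain endothelium, had 292 against 14.7 CPM (19.9, 15 to 25.9), and Axin2, a target and brake of the pathway, had 162 against 6.09 CPM (26.6, 18.0 to 38.3). The co-receptors Lrp5 and Lrp6 were the members near 1, at ratios of 0.809 (0.262 to 1.89) and 0.823 (0.424 to 1.44). Of the vascular receptors 21 of 23 measured genes, and of the endothelial transcription factors 14 of 19, had intervals wholly above 2-fold, among them Tie1 (25.4), Tek (19.1), Epas1 (16.7), Sox17 (16.8) and Klf2 (10.4), a factor induced by blood flow. Of 11 genes of caveolae and transcytosis 7 did. Cav1, the coat protein of caveolae, had 259 against 16.6 CPM (15.6, 11.6 to 20.6), and Tfrc, the transferrin receptor that brings iron into the brain, had 408 against 22.2 CPM (18.3, 14.5 to 22.9).

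The start regions of 4 genes are shown because the genes differ in how they vary among the vessel types described below. Flt1, a gene of the rule, was found in cells with and without Plvap. Cldn5 and Slc2a1 were nearly missing in cells with Plvap, and Cxcl12 was low in venous cells. Each line is the sense strand from 250 bases before to 50 bases after the start of the gene in RefSeq (GRCm38.p6). Capitals mark AGGAAG, a core of sites bound by ETS factors, or CTTTGA, a core of sites bound by TCF and LEF factors, on either strand. The regions are chr5:147725962-147726261 (minus strand) for Flt1, chr16:18776597-18776896 for Cldn5, chr4:119108495-119108794 for Slc2a1 and chr6:117168285-117168584 for Cxcl12, the last 3 on the plus strand.
Flt1: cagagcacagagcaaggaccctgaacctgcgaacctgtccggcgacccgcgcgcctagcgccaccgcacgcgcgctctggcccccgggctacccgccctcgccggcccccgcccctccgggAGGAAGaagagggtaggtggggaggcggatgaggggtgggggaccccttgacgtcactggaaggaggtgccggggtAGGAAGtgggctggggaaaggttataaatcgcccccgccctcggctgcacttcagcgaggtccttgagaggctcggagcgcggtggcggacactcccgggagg
Cldn5: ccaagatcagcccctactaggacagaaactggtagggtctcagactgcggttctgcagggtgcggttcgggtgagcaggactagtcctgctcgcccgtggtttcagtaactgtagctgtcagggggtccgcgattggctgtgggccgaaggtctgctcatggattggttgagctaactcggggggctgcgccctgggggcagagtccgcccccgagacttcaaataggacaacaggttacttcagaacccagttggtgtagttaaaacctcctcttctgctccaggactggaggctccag
Slc2a1: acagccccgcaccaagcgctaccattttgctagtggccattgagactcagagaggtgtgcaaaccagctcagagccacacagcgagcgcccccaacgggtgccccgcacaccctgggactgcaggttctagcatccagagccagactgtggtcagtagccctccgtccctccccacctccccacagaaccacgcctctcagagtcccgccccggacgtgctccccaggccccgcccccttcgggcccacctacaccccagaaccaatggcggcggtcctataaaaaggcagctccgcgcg
Cxcl12: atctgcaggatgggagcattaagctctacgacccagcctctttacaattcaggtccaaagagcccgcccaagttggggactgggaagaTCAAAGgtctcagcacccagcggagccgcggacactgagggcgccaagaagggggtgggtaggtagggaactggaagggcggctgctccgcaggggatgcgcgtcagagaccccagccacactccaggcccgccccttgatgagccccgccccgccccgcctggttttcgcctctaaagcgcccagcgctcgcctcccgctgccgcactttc
The window of Flt1 held AGGAAG in 2 places and that of Cxcl12 held CTTTGA in 1, on the other strand, while the windows of Cldn5 and Slc2a1 held neither. Among the 20 highest genes 15 had a window in the table, and 6 of these (40.0%) held AGGAAG, against 35.4% of 32851 windows of all genes. For CTTTGA the shares were 4 of 15 (26.7%) and 16.0%. These matches are descriptions of letters only. Of the genes that mark vessel types below, Vcam1 lies on chromosome 3 (116109949 to 116129688, minus strand), Plvap on chromosome 8 (71497765 to 71511752, minus strand) and Ackr1 on chromosome 1 (173331886 to 173333750, minus strand) of GRCm38 in the GENCODE M21 annotation.

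**Figure D2:**
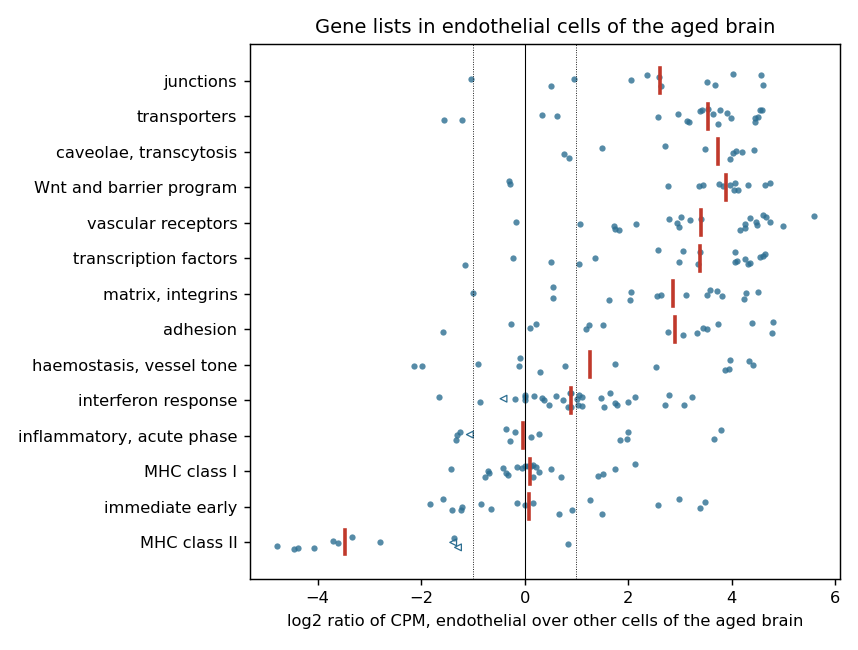
Log2 ratio of CPM in endothelial cells over other cells of the aged brain (horizontal axis) for each measured gene outside the rule, by gene list. Points are genes, open triangles are genes with 0 UMIs in endothelial cells set at 3 counts, red bars are list medians and dotted lines mark 2-fold. Barrier, receptor and transcription factor lists have medians between 2.61 and 3.89, MHC class I lies at 0.10 and MHC class II at -3.47.

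MHC class I genes were present in endothelial cells at about the level of the other cells. All 22 genes of the class I list were measured, 2 had intervals wholly above 2-fold and 0 wholly below, and the list median was 0.10. B2m, the light chain of all class I molecules, had 1473 CPM in endothelial cells, against 1894 CPM in other cells (ratio 0.778, 0.694 to 0.868), and a UMI of it was found in 91 of 110 cells. The heavy chain H2-K1 had 1130 against 799 CPM (1.41, 1.24 to 1.60) and H2-D1 had 866 against 780 CPM (1.11, 0.956 to 1.28). The 2 genes above 2-fold were the heavy chains H2-Q4, at 264 against 60.3 CPM (4.38, 3.30 to 5.69), and H2-Q7, at 185 against 55.6 CPM (3.33, 2.37 to 4.56). The class I genes are near-identical in sequence and how the counting split reads between them is not given, so single heavy chains are uncertain. The peptide transporter subunits Tap1 and Tap2 had few UMIs, at ratios of 0.749 (0.342 to 1.42) and 0.795 (0.257 to 1.86). Summed over the list, class I came to 6071 CPM in endothelial cells, against 6282 CPM in microglia, 6300 CPM in border macrophages, 3596 CPM in choroid plexus cells and 3071 CPM in mural cells. Ambient RNA held 5411 CPM of the list, close to the endothelial sum, and with the ambient profile subtracted the ratios were 0.785 for B2m and 1.48 for H2-K1.

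MHC class II genes were low. Of 14 genes on the list 12 were measured, and 9 had intervals wholly below a 2-fold lower level and 0 wholly above, with a median of -3.47. Cd74, the invariant chain of class II, had 8 UMIs in 7 of the 110 cells (37.0 CPM), against 808 CPM in other cells (0.0458, 0.0198 to 0.0903). H2-Aa, H2-Ab1 and H2-Eb1, the class II chains themselves, had 3, 9 and 6 UMIs, at 13.9, 41.7 and 27.8 CPM against 383, 422 and 362 CPM. Ciita, the factor that switches the class on, had 1 UMI. No cell held more than 2 UMIs of Cd74 or more than 1 of H2-Aa. Ambient RNA held 881 CPM of Cd74 and 374 CPM of H2-Aa, above the endothelial levels, so the endothelial levels of both were at or under background. The list summed to 889 CPM in endothelial cells, most of it the protease Ctss at 732 CPM, against 8062 CPM in microglia and 6613 CPM in border macrophages.

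Adhesion genes split into a high group and a group near or under the level of other cells. Of 18 genes 16 were measured, 10 had intervals wholly above 2-fold and 1 wholly below, and the median was 2.91. Bsg, described above with the transporters, is among the members above 2-fold. Icam2, a ligand for leukocyte integrins that resting endothelium carries, had 255 CPM in endothelial cells against 12.1 CPM in other cells (21, 15.6 to 27.9). Pecam1, through which leukocytes pass the junctions, had 486 against 42.2 CPM (11.5, 9.35 to 14.1). Vcam1, the ligand of the integrin VLA-4 on lymphocytes and monocytes, had 486 against 58.8 CPM (8.27, 6.73 to 10.1), but in only 26 of the 110 cells. Icam1, which inflamed endothelium raises, had 102 against 95.1 CPM (1.07, 0.670 to 1.62). Selp (P-selectin, on which leukocytes roll) had 4 UMIs in 2 cells, all in the venous class described below. So few UMIs still gave a ratio of 10.8 over other cells, where it was rarer. Sele (E-selectin) and Madcam1, both likewise for rolling, had 0 UMIs, where 3 counts are 13.9 CPM. Thus Icam2, Pecam1 and Vcam1 were high in level and ratio. The selectins were at or near 0 in level, though Selp was higher than in other cells by ratio. Cd9, a tetraspanin, was the member wholly below, at 213 against 640 CPM (0.333, 0.244 to 0.444).

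**Figure D3:**
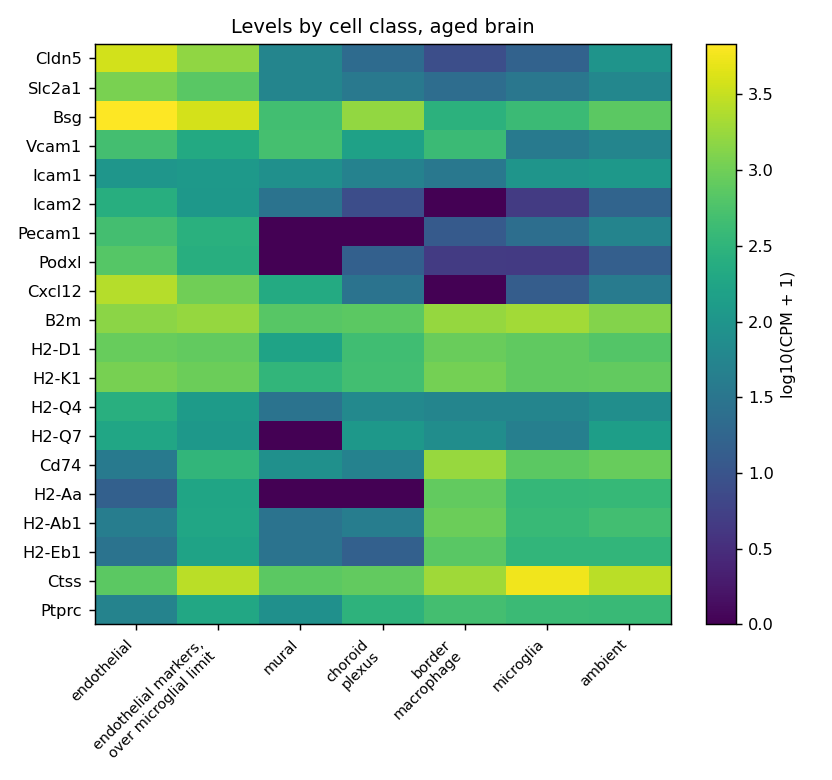
Levels of barrier, adhesion and MHC genes, as log10(CPM + 1), in endothelial cells, in barcodes with endothelial genes over the microglial limit, and in mural, choroid plexus, border macrophage and microglial cells and ambient RNA of the aged brain. Barrier and adhesion genes are brightest in the endothelial column, B2m, H2-D1 and H2-K1 have similar levels in endothelial cells and microglia, and class II genes are dark in endothelial cells.

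Of 33 interferon response genes 6 had intervals wholly above 2-fold and 0 wholly below, with a median of 0.89. The highest levels were those of Ifitm3 and Ifitm2, membrane proteins that block virus entry, at 1769 against 269 CPM (6.57, 5.92 to 7.28) and 695 against 82.9 CPM (8.38, 7.06 to 9.88). Ifit1 was at a ratio of 6.90 (4.23 to 10.7), Iigp1 at 9.36 (6.29 to 13.5) and Isg15 at 2.79 (1.39 to 5.04), and the chemokine Cxcl10 had 0 UMIs. Of 14 haemostasis and vessel tone genes measured 5 had intervals wholly above 2-fold, among them Vwf, which tethers platelets, at 820 against 56.3 CPM (14.6, 12.4 to 17.0), and Edn1, which constricts vessels, at 607 against 30.1 CPM (20.2, 16.7 to 24.2). Of 16 matrix genes 9 did, with a median of 2.87, among them Col4a1 of the basement membrane at 519 against 27.0 CPM (19.2, 15.6 to 23.4). In the senescence list Cdkn1a (p21, a brake on the cell cycle) had 389 against 29.7 CPM (13.1, 10.4 to 16.4), whereas Cdkn2a (p16) had 0 UMIs. The cell cycle list summed to 134 CPM in endothelial cells, against 167 CPM in microglia and 153 CPM in ambient RNA. It held 9 UMIs of Pcna, 7 of Mcm6, 2 of Mki67 and 1 of Top2a. Of the lymphatic list Flt4, named above and also a vascular receptor, had 25 UMIs, and the other 6 genes, Prox1 and Lyve1 among them, had 0.

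Vessel segments were set by 3 lists of arterial, capillary and venous genes, and a cell took the list that was highest in it, if it had at least 3 UMIs of that list. This gave 13 arterial cells (11.8%, 6.45 to 19.4%), 49 capillary cells (44.5%, 35.1 to 54.3%) and 27 venous cells (24.5%, 16.8 to 33.7%), while 21 cells (19.1%, 12.2 to 27.7%) had too few UMIs. The classes are ranges of a score and not types: 4 cells had exactly 3 UMIs of the winning list, 10 unassigned cells had 2, and in 22 cells the next list reached at least 0.5 of the value of the first. Median depths were 2151 UMIs in arterial, 1975 in capillary, 1489 in venous and 863 in unassigned cells, so the lack of a class went with low depth. The arterial list was carried mainly by Mgp, with 148 UMIs in 31 of all 110 cells, and summed to 1079 CPM in endothelial cells, below its 2434 CPM in mural cells. Gja4, Gja5, Hey1 and Jag1 of this list had 0 UMIs in the 13 arterial cells. The summed mural list was 3455 CPM in arterial, 1805 CPM in capillary and 450 CPM in venous cells. The share of mural RNA in the arterial values was not tested.

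Outside the 3 lists, Vcam1, Ptgs2, Fth1 and Ifitm3 were lower in capillary than in venous cells, and Cxcl12 was higher. Between segments a gene was measured with at least 30 UMIs over both classes. Of 841 genes measured, 22 (2.62%) had intervals wholly above 2-fold in capillary over venous cells and 13 (1.55%) wholly below. Vcam1 had 6 UMIs in 4 of 49 capillary cells, against 92 UMIs in 18 of 27 venous cells, where single cells reached 12 UMIs. As levels these were 56.1 CPM in capillary and 1656 CPM in venous cells, a ratio of 0.0339 (0.0121 to 0.0766), and venous cells held 92 of all 105 Vcam1 UMIs. Among the 181 cells at a microglial limit of 2 per 1000 UMIs this ratio was 0.125 (0.0758 to 0.196), that of Ifitm3 0.348 (0.294 to 0.409) and that of Ptgs2 0.0652 (0.0260 to 0.136). Ptgs2, the inducible cyclooxygenase that makes prostaglandins, had 18.7 CPM in capillary and 828 CPM in venous cells (0.0226, 0.00266 to 0.0864). Fth1, the heavy chain of ferritin, had 1552 against 11108 CPM (0.140, 0.117 to 0.166), and Ifitm3 had 739 against 4051 CPM (0.182, 0.139 to 0.237). The adhesion genes Pecam1 and Icam2 had ratios near 1, with Pecam1 at 1.08 (0.658 to 1.82) and Icam2 at 1.04, and Icam1, with 4 against 14 UMIs, was under the minimum. The venous list itself, which set the class, includes Ackr1, a chemokine carrier of venules, and the acute phase genes Lcn2 and Lrg1.

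In the other direction Cxcl12 was at 4031 CPM in capillary cells, found in 45 of 49 cells, against 270 CPM in venous cells, found in 8 of 27 (ratio 14.9, 8.95 to 26.9). Slc1a2, a glutamate transporter of the astrocyte list, had 627 CPM in capillary cells, against 0 CPM in venous cells. Slco1c1 was at 1141 against 342 CPM (3.34, 2.05 to 5.73) and Bsg at 9025 against 5491 CPM (1.64, 1.44 to 1.88). Slc2a1 was at 1253 against 1206 CPM (1.04, 0.769 to 1.41), so the glucose transporter did not separate the classes by 2-fold either way. The abundant class I genes had ratios within 2-fold, all of them below 1. B2m was at 1356 against 1656 CPM (0.819, 0.626 to 1.08), H2-K1 at 991 against 1350 CPM (0.734, 0.541 to 1.0) and H2-D1 at 711 against 1062 CPM (0.669, 0.470 to 0.957). H2-Q4 was at 168 against 342 CPM (0.492, 0.244 to 0.991) and H2-Q7 at 103 against 306 CPM (0.336, 0.142 to 0.761).

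Between arterial and venous cells 357 genes were measured, and 10 (2.8%) had intervals wholly above 2-fold in arterial cells and 5 (1.4%) wholly below. Cxcl12 was at 1992 CPM in arterial against 270 CPM in venous cells (7.38, 4.16 to 13.9). Rgs5 and Vtn, mural genes, were at 1307 against 198 CPM (6.6, 3.34 to 14.2) and at 1245 against 54.0 CPM (23.1, 7.34 to 116), beside the high mural list of the arterial cells. Plpp3 was at 1121 against 126 CPM and Timp3 at 1712 against 270 CPM, and both are among the genes of the Plvap cells described next. Fth1, at 2864 against 11108 CPM (0.258, 0.205 to 0.321), was lower in arterial cells as in capillary cells. Vcam1 was at 156 CPM in arterial cells, from 5 UMIs in 2 of 13 cells, against 1656 CPM in venous cells (0.0940, 0.0298 to 0.227). That ratio was 0.526 (0.301 to 0.877) when the cells with Plvap were left out and the classes set again, and 0.797 (0.369 to 1.62) without cells that hold markers of other cell types, so Vcam1 does not firmly separate arterial from venous cells here.

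**Figure D4:**
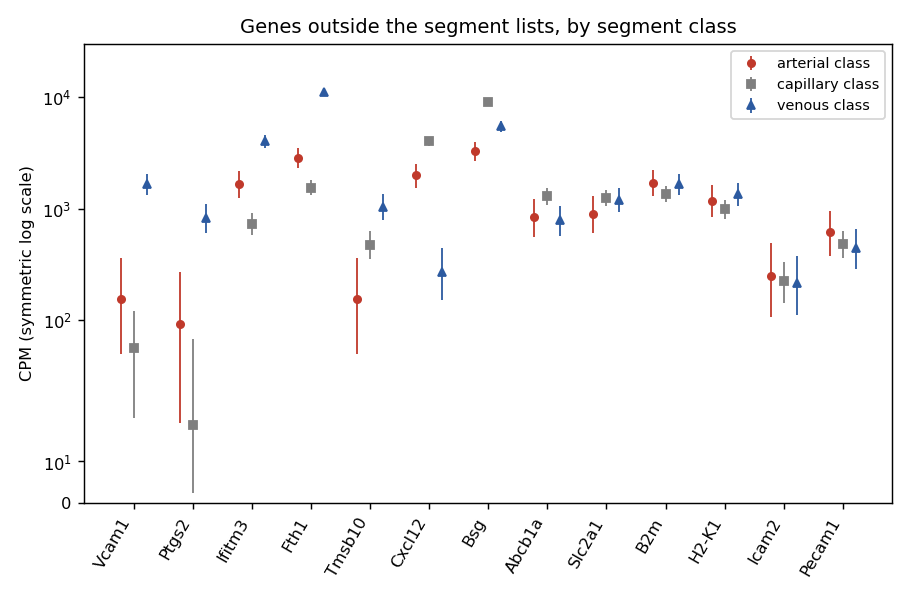
CPM (symmetric log axis) of genes outside the segment lists in arterial (13 cells), capillary (49 cells) and venous (27 cells) classes, with exact Poisson 95% intervals. Vcam1, Ptgs2, Ifitm3 and Fth1 are highest in the venous class and Cxcl12 lowest there, while Slc2a1, B2m and H2-K1 have overlapping intervals in all 3 classes.

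A set of endothelial cells had Plvap RNA and little barrier RNA. The limit of 2 Plvap UMIs was chosen after its values were seen. By it 10 of the 110 cells (9.09%, 4.45 to 16.1%) had 2 to 15 Plvap UMIs each, 98 had 0 and 2 had 1. The 10 cells were the deeper ones, with a median of 2681.5 UMIs against 1610 in the 98. By segment list 4 were arterial, 4 capillary and 2 unassigned, and no venous cell held a Plvap UMI. The capillary list holds Rgcc, which had 37 UMIs in 8 of the 10 cells, against 15 UMIs in the 98 (ratio 15.5, 8.32 to 30.5). Of 7 capillary genes measured, 1 had an interval wholly above 2-fold in the 10 cells and 3 wholly below a 2-fold lower level. Over all 1178 genes measured these shares were 2.38% and 3.23%. Tfrc, Slc16a1, Mfsd2a, Slc7a1 and Slc7a5 of this list had 0 UMIs in the 10 cells and Spock2 had 2. Of 19 endothelial cells of the young brain 3 had 2 or more (15.8%, 3.38 to 39.6%).

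The 10 cells kept the general endothelial genes. Flt1 had 5849 CPM in Plvap cells, against 4565 CPM in cells without Plvap (ratio 1.28, 1.08 to 1.51), and it is partly through Flt1 that they passed the rule. Ptprb was at 1847 against 1831 CPM (1.01, 0.742 to 1.35), Esam at 547 against 543 CPM (1.01, 0.554 to 1.72) and Tek at 274 against 261 CPM (1.05, 0.429 to 2.24). Kdr was found in all 10 cells, at 2771 against 620 CPM (4.47, 3.32 to 6.0). Ptprb, Esam, Tek and Kdr were not part of the rule.

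Many barrier genes were low or at 0 in them. Cldn5 had 4 UMIs, all in 1 of the 10 cells, against 809 UMIs in 89 of 98 cells without Plvap, or 137 against 4396 CPM (0.0311, 0.00846 to 0.0800). Slc2a1 had 0 UMIs, against 252 UMIs in 69 of 98 cells, a ratio of 0.0749 with the 0 set at 3 counts (upper bound 0.0928). Slco1c1, Tfrc, Lef1, Foxq1 and Lsr also had 0 UMIs in the 10 cells, against 167, 88, 73, 63 and 61 UMIs in the 98. Set at 3 counts, their ratios were 0.113, 0.215, 0.259, 0.300 and 0.310, with upper bounds of 0.141, 0.269, 0.326, 0.380 and 0.392. Bsg had 10 UMIs, against 1461, or 342 against 7940 CPM (0.0431, 0.0206 to 0.0795). Abcb1a was at 205 against 1206 CPM (0.170, 0.0618 to 0.376) and Tjp1 at 239 against 652 CPM (0.367, 0.145 to 0.780). Of 15 transporter genes measured 7 had intervals wholly below a 2-fold lower level and 0 wholly above, where 3.23% of all 1178 genes measured were below and 2.38% above. The list median was -1.49, against -0.10 over all genes.

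Besides Plvap, which chose the cells, the 2 other measured genes of the fenestrated list had intervals wholly above 2-fold in the 10 cells. These lipid phosphatases, Plpp3 and Plpp1, were at 3044 against 81.5 CPM (37.3, 21.5 to 69.5) and 2087 against 54.3 CPM (38.4, 19.5 to 84.1), and both were found in all 10 cells. Cd24a, a small surface glycoprotein, had 44 UMIs in 9 of the 10 cells and 0 in the 98. With that 0 set at 3 counts the ratio was 92.3 (lower bound 72.0). Cd24a is also on the neuroblast list, where it was the 1 measured gene, and Dcx, Sox11, Dlx2 and Tubb3 had 0 UMIs in all 110 cells. Igfbp3, which binds insulin-like growth factors, was at 1060 against 21.7 CPM (48.8, 17.2 to 190), Mgll (a monoacylglycerol lipase) at a ratio of 32.3 (14.9 to 79.7), and Nrp1 (a VEGF co-receptor) at 9.29 (6.18 to 14.1). B2m was at 2189 against 1364 CPM (1.60, 1.20 to 2.12). Vcam1 and Vwf had 0 UMIs in the 10 cells, against 105 and 177 in the 98. Ttr, the leading gene of the choroid plexus, was at 3010 against 3636 CPM (0.828, 0.655 to 1.04), so it was not higher in the Plvap cells.

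**Figure D5:**
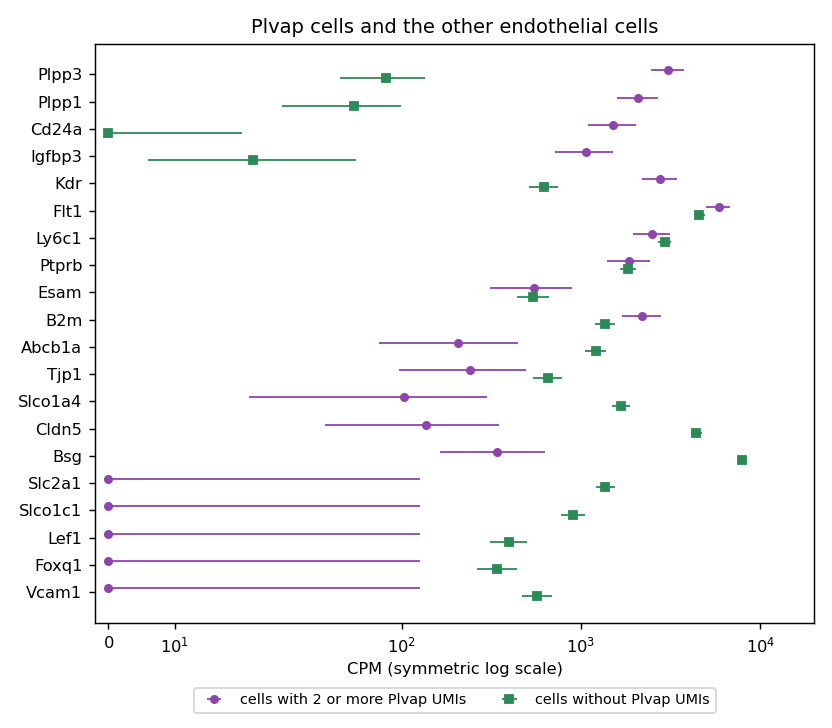
CPM (symmetric log axis) of 20 genes in the 10 endothelial cells with 2 or more Plvap UMIs and in the 98 without Plvap UMIs, with exact Poisson 95% intervals. Flt1, Ptprb and Esam overlap, Plpp3, Plpp1, Cd24a, Igfbp3 and Kdr are higher in the Plvap cells, and Cldn5, Bsg, Slc2a1, Slco1c1, Lef1 and Foxq1 are lower or at 0.

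The same rule found 19 endothelial cells in the young brain, with 65252 UMIs and a median of 2593 per cell. Their share of cells was 0.211% (0.127 to 0.330%), against 0.805% in the aged brain, a ratio of 3.81 (2.33 to 6.57). When barcodes that hold more UMIs in another library were left out, the shares were 0.810% (0.667 to 0.976%) of 13573 cells in the aged and 0.517% (0.312 to 0.807%) of 3673 cells in the young brain, a ratio of 1.57 (0.957 to 2.70). A sort for a leukocyte protein sets how many endothelial cells enter each library, so these shares are no measure of vessels in the tissue. Age, mouse, sort and library cannot be told apart here.

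Between the ages, again with at least 50 UMIs for a gene, few genes stood apart. Of 874 genes measured, 18 (2.06%) had intervals wholly above 2-fold in aged over young cells and 7 (0.801%) wholly below. None of 7 junction, 11 transporter, 9 class I and 9 adhesion genes was among them, a count that at these shares says little about the lists. By the ratio alone 2 transporter, 1 class I and 1 adhesion gene were at least 2-fold higher in aged cells. The share of all 874 genes by that call is not given here, so these counts say nothing about the lists. Bsg was at 6812 CPM in aged and 7249 CPM in young cells (0.940, 0.847 to 1.04), Slc2a1 at 1167 against 874 CPM (1.34, 0.999 to 1.81) and Cxcl12 at 2538 against 2360 CPM (1.08, 0.898 to 1.29). H2-K1 was at 1130 against 843 CPM (1.34, 0.997 to 1.83), H2-D1 at 866 against 1073 CPM (0.807, 0.610 to 1.08) and B2m at 1473 against 705 CPM (2.09, 1.53 to 2.91), beside ambient B2m of 1345 CPM in the aged and 672 CPM in the young library. Cldn5, which the rule used, was at 3765 against 4031 CPM.

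The genes that differed by age stood with few young cells. Ackr1 had 83 UMIs in 16 of 110 aged cells, against 1 UMI in 19 young cells (25.1, 4.38 to 1002), and Lrg1 had 60 UMIs in 17 aged cells, against 1 UMI (18.1, 3.13 to 728). Both are venous genes, and Vcam1 was at 486 CPM in aged against 138 CPM in young cells (3.53, 1.79 to 7.92). Without cells that hold markers of other cell types the young cells had 0 UMIs of Ackr1. With that 0 set at 3 counts the ratio was 1.35, so the size of the difference is not known there. Rgs5 was at 727 CPM in aged against 2084 CPM in young cells (0.349, 0.275 to 0.442), where 1 young cell held 56 of 136 UMIs, and Myl9, also a mural gene, was at 107 against 613 CPM (0.174, 0.0993 to 0.297). Without cells that hold markers of other types, Rgs5 among them, the ratio of Rgs5 was 0.966. Plvap, Plpp3 and Kdr were at 333 against 690 CPM, 505 against 1425 CPM and 926 against 1471 CPM, beside the shares of Plvap cells given above. All 5 measured genes of the microglial list had intervals wholly above 2-fold in aged cells. Among the 18 higher genes were Ttr, C1qb and Ctss, at 3589, 824 and 732 CPM in aged and 307, 123 and 153 CPM in young cells. Ambient RNA held 15952, 4857 and 2776 CPM of these genes in the aged library and 6134, 3405 and 1189 CPM in the young library.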

How the data were processed

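RNA of single cells was counted in 4 mouse libraries. The matrices that the authors deposited hold UMI counts as integers for 31053 genes and every barcode, with no normalization and no filter on barcodes. They were written by software version 3.1.0, per the file headers, which list mouse genes. The submitters' processing notes instead give GRCh38 (human) as build and Cell Ranger 1.3.1, so which software and annotation made the counts is uncertain. The authors' deposited table of clusters gives the fraction of cells with a gene, read here as a percent, a log ratio taken as natural log and p-values, and was used only to see which genes it lists for cluster 6.

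UMIs were summed over cells and given per 1e6 UMIs (CPM) with exact Poisson intervals, ratios with exact conditional binomial intervals and shares with Clopper-Pearson intervals, all at 95%. A gene with 0 UMIs was set at 3 counts over the group, and left out of the measured genes where that gave a ratio of 1 or more. A gene was measured with at least 50 UMIs over both groups, or 30 between segments and between Plvap cells and the rest, and those of the rule were left out. Calls were made by the ratio and, added after the data were seen, by the whole interval beyond 2-fold. With 1 library per group there is no replicate and no test. Named genes were the first 20 higher and 5 lower by the bound nearest 1, leaving out ribosomal, mitochondrial, haemoglobin and immunoglobulin genes and unnamed models, and the first 5 each way between segments, plus list members. 1 gene that this rule names is not reported here. Cell classes used for comparison were chosen by marker sums of at least 5 UMIs. The members and the 35 gene lists were chosen with earlier results of these data known. The interval code was tested on simulated data. Scrublet, run through scanpy 1.11.5, marked 0 of 13662 cells of the aged brain and 2 of 8994 of the young brain as doublets, so its threshold had not worked, and doublets were kept. Removal of the 1493 highest scores, 5 of them endothelial, was an alternative, beside others for the rule, depth, scaling, gene minimum and ambient RNA. Python 3.11.15, numpy 2.4.6, pandas 2.3.3 and SciPy 1.17.1 were used.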

Additional observations from a re-analysis of the deposited data

Results flagged for a closer look

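Barcodes outside the comparisons also carried endothelial genes. In the aged brain 339 barcodes had at least 5 UMIs of the endothelial genes but more than 2 of the microglial genes, with 3 to 232 microglial UMIs each. In the spleen libraries 12 barcodes of the aged and 9 of the young spleen met the endothelial rule, at medians of 44963 and 5408 UMIs. All 12 of the aged spleen had a barcode that was also a cell in another library, and 0 of the 9 of the young spleen did.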

How the results depend on the processing

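No paired analysis was possible because each group has 1 library, and for the same reason no replicate could be left out. The number of endothelial cells was 22 at a microglial sum of 0, 71 at a mitochondrial limit of 5%, 68 without cells holding markers of other cell types and 181 at a microglial limit of 2 per 1000 UMIs. Genes lower by ratio numbered 910 at a microglial sum of 0, and genes higher numbered 1365 at a gene minimum of 200 UMIs. Calls by the whole interval gave 913 higher and 449 lower. The junction median was 3.19 at a microglial sum of 0, 3.14 at the mitochondrial limit of 5% and 3.76 with cells thinned to 1000 UMIs, and the transporter median was 4.23 against other cells without the endothelial-marker barcodes. The venous share was 40.9% at a microglial sum of 0. The ratio of shares of aged over young was 1.57 without barcodes that hold more UMIs in another library. The ratio of Lrg1, aged over young, was 0.948 (lower bound 0.558) at a microglial sum of 0. There the young cells had 0 UMIs set at 3 counts, so it gives no direction. At a microglial limit of 2 per 1000 UMIs the ratios of capillary over venous cells were 0.125 for Vcam1 and 0.348 for Ifitm3. Of the genes followed, 61 had a 2-fold ratio of endothelial over other cells, and all 61 stayed on the same side of 1 under the 15 alternatives that gave values for them. Depth limits genes at or near 0 UMIs and all comparisons with the 19 young, 13 arterial and 10 Plvap cells. The settings that keep deeper barcodes, compare without the mixed barcodes, call by whole intervals or leave out Plvap cells were added after the data were seen.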
